A study of Mus musculus with 12 samples.

Results

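Cyst fluid in autosomal dominant polycystic kidney disease (ADPKD) is secreted by the epithelium, and 9 genes known for chloride and fluid secretion were followed here in mIMCD3 cells, a line from the inner medullary collecting duct of the mouse. They were chosen by name for their known role in cyst fluid secretion, and they are 9 of the 47642 genes listed. Each was found once by its Ensembl identifier, and all 9 were among the 18552 genes tested. RNA was sequenced in 12 libraries, 4 each of wild-type (Wt), Pkd1-/- and Pkd2-/- cells, none of which received a treatment. All 3 lines descend from collecting duct cells of mice that carry the early region of the virus SV40, which keeps the cells dividing. The Pkd1-/- line is 1 clone made with CRISPR, with nearly the whole gene on chromosome 17 deleted on both alleles. The Pkd2-/- line is 1 clone made with TALEN nucleases, with an inner part of the gene on chromosome 5 deleted. Of 6 dishes grown per genotype, the 4 with the purest RNA were sequenced, harvested 4 days after full confluency. The replicates are therefore dishes of 1 line. Other clones were not sampled, and an effect of the genotype and a property of the clone cannot be told apart.

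In a secretory epithelial cell, chloride enters across the basolateral membrane together with sodium and potassium, and it leaves through channels in the apical membrane. The sodium pump returns the sodium, potassium channels return the potassium and keep the cell interior negative, and sodium and water follow the chloride into the lumen. In cysts, cyclic AMP opens the apical channel CFTR, and calcium-activated channels form a further exit. Polycystin-1 and polycystin-2, the products of Pkd1 and Pkd2, form a complex in the primary cilium, and its loss is linked to raised cyclic AMP signaling in cyst cells. RNA amounts do not show whether a channel is open or where in the cell it sits.

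The genes that differed most between genotypes were both chloride channels, and their promoters are shown for that reason. Each line gives the 250 bases before the RefSeq start on the gene's strand (GRCm38.p6), with each GC box (GGGCGG) in capitals.
Cftr: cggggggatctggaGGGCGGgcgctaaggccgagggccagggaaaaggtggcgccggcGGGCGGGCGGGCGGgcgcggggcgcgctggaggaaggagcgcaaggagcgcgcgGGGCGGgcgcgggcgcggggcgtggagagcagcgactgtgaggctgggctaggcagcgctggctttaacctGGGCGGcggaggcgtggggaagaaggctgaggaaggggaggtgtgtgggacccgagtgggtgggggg
Ano1: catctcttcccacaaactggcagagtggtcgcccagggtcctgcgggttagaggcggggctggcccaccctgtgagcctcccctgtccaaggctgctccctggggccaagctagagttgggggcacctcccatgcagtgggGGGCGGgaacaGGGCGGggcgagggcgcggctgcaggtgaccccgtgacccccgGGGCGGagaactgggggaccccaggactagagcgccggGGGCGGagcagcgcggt
The Cftr window, chr6:18170437-18170686 on the plus strand, holds 6 GC boxes, 3 of them overlapping, and 30 CpG dinucleotides. The Ano1 window, chr7:144738574-144738823 on the minus strand, holds 4 GC boxes and 16 CpG dinucleotides. It lies inside the gene as annotated by GENCODE, whose upstream end is at chr7:144751974. Which start these cells use was not tested. Over all 32851 promoters of that length the median was 6 CpG dinucleotides and a GC content of 52.4%, against 76.4% for Cftr and 72.0% for Ano1. On either strand, the GC box was in 32.7% of all promoters. The cyclic AMP response element TGACGTCA, present in 1.55% of promoters, its shorter form TGACG, which the longer letters contain and which is in 17.8%, and the TATA box TATAAA, in 12.4%, were in neither window. Of the other members, Ano6, Wnk1, Kcnn4, Atp1b1, Slc4a2 and Slc9a3r1 matched the RefSeq promoter table and Slc12a2 did not. These matches describe letters in a window and do not show that a factor binds there.

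Cftr encodes the cyclic AMP-gated chloride and bicarbonate channel of the apical membrane (chr6:18170687-18322768, plus strand, 7765 bases of merged exons). Values are normalized counts, that is, reads per gene divided by a size factor of the library. Cftr had 46, 34, 23 and 31 normalized counts in the Wt libraries, 6, 0, 0 and 0 in Pkd1-/- and 1, 0, 0 and 0 in Pkd2-/-. It was low in Wt and close to 0 in both mutants, and every mutant library lay below every Wt library. Means were 33.5 ± 9.54 in Wt, 1.5 ± 3.0 in Pkd1-/- and 0.25 ± 0.5 in Pkd2-/- (SD, n = 4 each). The log2 fold change on log2(normalized count + 1) was -4.37 (SE 0.57) in Pkd1-/- and -4.82 (SE 0.57) in Pkd2-/-, with limma adjusted p-values of 9.2e-06 and 1.32e-06. These are fitted values for a gene near 0 and not bounds. Treating the values as counts, the summed Wt signal was 22.3 times that of Pkd1-/- (95% interval 10.0 to 61.9) and 134 times that of Pkd2-/- (23.6 to 5332), the latter against a single count. Both intervals cover counting error only. Between the mutants, Cftr was not distinguishable at this depth (log2 fold change -0.45, 95% interval -1.65 to 0.75, limma adjusted p = 0.56). The gene passed the filter on low values, a mean of at least 1, only through its Wt libraries, so its p-values are given as a description. In these bulk samples, fewer cells that hold a transcript and less of it per cell cannot be told apart.

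Ano1 encodes the calcium-activated chloride channel TMEM16A (chr7:144588549-144751974, minus strand). It had 23, 12, 12 and 8 normalized counts in Wt, 10, 12, 13 and 14 in Pkd1-/- and 80, 126, 84 and 117 in Pkd2-/-. The Wt and Pkd1-/- libraries overlapped, and each Pkd2-/- library exceeded all the others. The means were 13.8 ± 6.45, 12.3 ± 1.71 and 101.8 ± 23.2 (SD, n = 4 each). Ano1 thus rose 7.40-fold in Pkd2-/- over Wt (log2 fold change 2.87, SE 0.28, limma adjusted p = 9.95e-08). Its level in Pkd2-/- was 8.31 times that in Pkd1-/- (2.94, SE 0.28, limma adjusted p = 5.47e-08). The difference of Pkd1-/- from Wt was -0.07, with a 95% interval of -0.65 to 0.51 and a limma adjusted p of 0.896. Ano1 and Cftr thereby had different patterns. Cftr fell in both mutants, while Ano1 was above Wt in Pkd2-/- and differed between the mutants.

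Ano6, whose product TMEM16F is a calcium-activated scramblase of membrane lipids that also conducts ions (chr15:95790843-95974751, plus strand), was the abundant member of this pair of related genes. Its normalized counts were 3998, 3608, 3877 and 4053 in Wt, 2921, 3385, 3336 and 3517 in Pkd1-/-, and 4060, 4350, 3710 and 4679 in Pkd2-/-. The Pkd1-/- libraries were the lowest, and the Wt and Pkd2-/- libraries overlapped. Ano6 fell by 15.3% in Pkd1-/- (log2 fold change -0.24, SE 0.07, limma adjusted p = 0.0123), a call that was lost when the variance trend was left out of the model (adjusted p = 0.0591). In Pkd2-/- against Wt the change was 0.11 (95% interval -0.03 to 0.25, limma adjusted p = 0.224), and Pkd2-/- exceeded Pkd1-/- by 0.35 (SE 0.07, limma adjusted p = 0.000307).

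**Figure D1:**
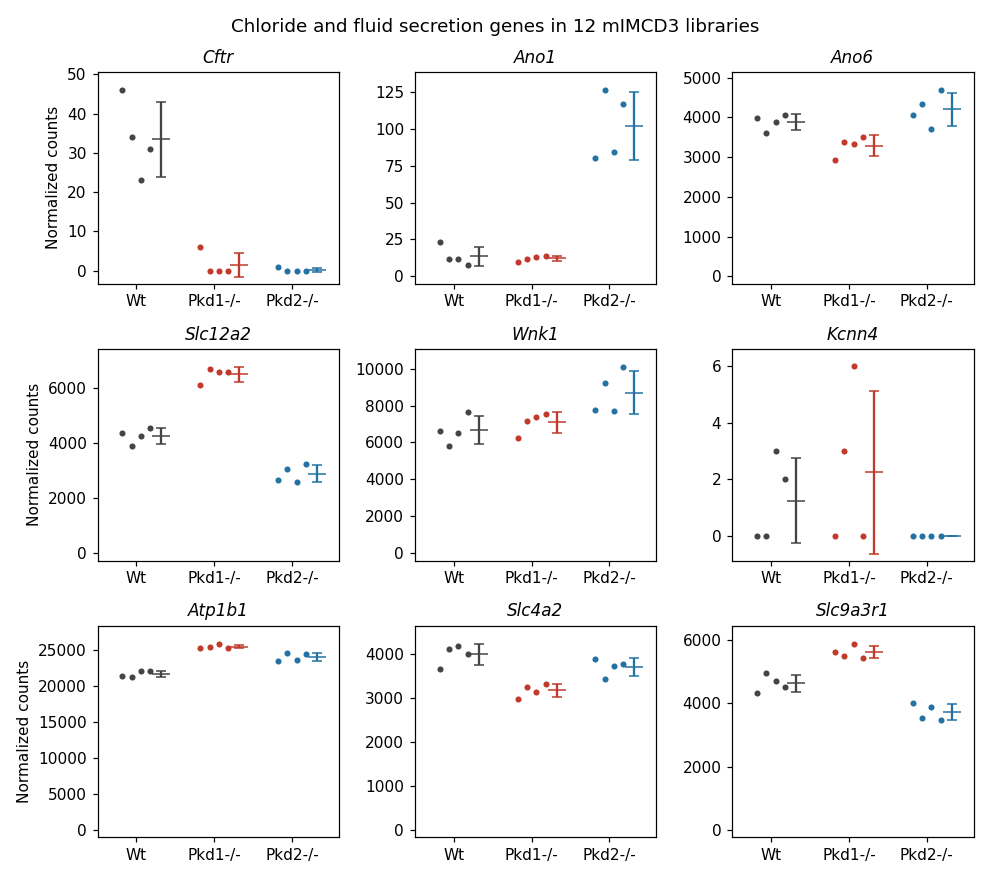
Normalized counts of the 9 chloride and fluid secretion genes, 1 panel per gene with its own vertical axis. Dots are libraries (4 each of Wt, Pkd1-/- and Pkd2-/-), and the bar beside them is the mean with its SD. Cftr is near 0 in both mutants, Ano1 is high in Pkd2-/- only among these 12 libraries, and Slc12a2 lies above Wt in Pkd1-/- and below it in Pkd2-/-.

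Slc12a2 encodes NKCC1, the basolateral cotransporter that loads the cell with sodium, potassium and chloride (chr18:57878678-57946821, plus strand). It had 4363, 3877, 4261 and 4548 normalized counts in Wt, 6109, 6693, 6560 and 6587 in Pkd1-/-, and 2652, 3067, 2587 and 3220 in Pkd2-/-. No library of one genotype overlapped those of another, with Pkd1-/- highest and Pkd2-/- lowest. Slc12a2 rose by 52.2% in Pkd1-/- (log2 fold change 0.61, SE 0.07, limma adjusted p = 1.07e-06). It fell by 32.4% in Pkd2-/- (-0.57, SE 0.07, limma adjusted p = 1.19e-06). The mutants differed from each other by -1.18 (Pkd2-/- minus Pkd1-/-, SE 0.07, limma adjusted p = 3.85e-11), a 2.25-fold higher mean in Pkd1-/- than in Pkd2-/-. Neither change against Wt reached a log2 fold change of 1.

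Wnk1 encodes the chloride-sensing kinase that acts through the kinases SPAK and OSR1 to activate NKCC1 (chr6:119923969-120038672, minus strand). The counts are per gene and do not separate its long form from the kidney-specific one, which lacks the kinase domain. Wnk1 had 6603, 5831, 6529 and 7671 normalized counts in Wt, 6255, 7188, 7372 and 7557 in Pkd1-/-, and 7772, 9209, 7689 and 10072 in Pkd2-/-. The Pkd2-/- libraries were the highest, while Wt and Pkd1-/- overlapped. It rose by 30.4% in Pkd2-/- (log2 fold change 0.38, SE 0.09, limma adjusted p = 0.00166). Against Pkd1-/- the difference was 0.29 (SE 0.09, limma adjusted p = 0.0119), which was not past the threshold without the variance trend (adjusted p = 0.0602) or without Pkd1-/- replicate 1 (0.23, adjusted p = 0.0508). The change of Wnk1 in Pkd1-/- was 0.09 (95% interval -0.09 to 0.28, limma adjusted p = 0.492). In Pkd2-/- cells the kinase transcript was thus higher and the cotransporter transcript lower than in Wt.

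The kinases between them were chosen for description after their values were seen. Stk39, which encodes SPAK, had 22, 16, 15 and 13 normalized counts in Wt, 2, 0, 0 and 1 in Pkd1-/-, and 0, 0, 1 and 0 in Pkd2-/-. It was low in Wt and at most 2 in every mutant library, and like Cftr it passed the filter on low values only through its Wt libraries, so these values are given as a description. Oxsr1, which encodes OSR1, was more abundant, with means of 1913 ± 194 in Wt, 1915 ± 92.6 in Pkd1-/- and 1689 ± 133 in Pkd2-/- (SD, n = 4 each). Its log2 fold change was 0.01 in Pkd1-/- (SE 0.07, limma adjusted p = 0.972) and -0.18 in Pkd2-/- (SE 0.07, limma adjusted p = 0.0496).

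Kcnn4 encodes a calcium-activated potassium channel that lets potassium leave during secretion (chr7:24370263-24386690, plus strand). It had 0, 0, 3 and 2 normalized counts in Wt, 0, 3, 6 and 0 in Pkd1-/-, and 0 in every Pkd2-/- library. These values are at or near the 3 counts that a count of 0 allows, so no fold is given, and a difference was not detectable at this depth (limma adjusted p = 0.801, 0.325 and 0.166 for Pkd1-/- against Wt, Pkd2-/- against Wt and Pkd2-/- against Pkd1-/-).

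Atp1b1 encodes the beta subunit of the sodium pump, needed for its assembly and transport to the membrane (chr1:164437109-164458355, minus strand). It had 21428, 21366, 22164 and 22122 normalized counts in Wt, 25377, 25509, 25878 and 25371 in Pkd1-/-, and 23559, 24659, 23676 and 24547 in Pkd2-/-. The 3 genotypes did not overlap, and the SD was between 0.93% and 2.38% of the mean. Atp1b1 rose by 17.3% in Pkd1-/- (log2 fold change 0.23, SE 0.04, limma adjusted p = 0.000175) and by 10.7% in Pkd2-/- (0.15, SE 0.04, limma adjusted p = 0.00498). The second call was lost when all libraries were scaled to the same total (0.08, adjusted p = 0.115). Between the mutants the difference was -0.08 (limma adjusted p = 0.0945) and passed the threshold under the same total (-0.15, adjusted p = 0.00313) or the same upper quartile (-0.13, adjusted p = 0.0142). The gene shares 575 exon bases, 18.7% of its exon length, with Nme7 on the opposite strand, and whether reads were counted by strand is not given in the sources used here. Nme7 differed by 0.02 in Pkd1-/- and -0.16 in Pkd2-/- (limma adjusted p = 0.851 and 0.0126).

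Slc4a2 encodes AE2, a basolateral exchanger that takes up chloride for bicarbonate (chr5:24423837-24440950, plus strand). It had 3669, 4126, 4194 and 3994 normalized counts in Wt, 2991, 3256, 3138 and 3318 in Pkd1-/-, and 3899, 3436, 3726 and 3769 in Pkd2-/-. The Pkd1-/- libraries were the lowest, and Wt and Pkd2-/- overlapped. Slc4a2 fell by 20.5% in Pkd1-/- (log2 fold change -0.33, SE 0.05, limma adjusted p = 0.000101) and was higher in Pkd2-/- than in Pkd1-/- by 0.22 (SE 0.05, limma adjusted p = 0.00194). Its change in Pkd2-/- against Wt, -0.11 (95% interval -0.22 to 0.00, limma adjusted p = 0.119), passed the threshold without Wt replicate 1 (-0.15, adjusted p = 0.0331), under the same upper quartile (-0.14, adjusted p = 0.0475) and under the same total (-0.17, adjusted p = 0.0175). Slc4a2 shares 1141 exon bases, 13.7% of its exon length, with Fastk on the opposite strand, and Fastk differed by -0.31 in Pkd1-/- and -0.22 in Pkd2-/- (limma adjusted p = 0.00113 and 0.00897).

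Slc9a3r1 encodes NHERF1, a PDZ scaffold that ties CFTR and other apical proteins to the cytoskeleton through ezrin (chr11:115163341-115181181, plus strand). It had 4344, 4973, 4703 and 4509 normalized counts in Wt, 5642, 5492, 5876 and 5451 in Pkd1-/-, and 4016, 3528, 3885 and 3487 in Pkd2-/-. As for Slc12a2, the 3 genotypes did not overlap, with Pkd1-/- above and Pkd2-/- below Wt. Slc9a3r1 rose by 21.2% in Pkd1-/- (log2 fold change 0.28, SE 0.05, limma adjusted p = 0.00066) and fell by 19.5% in Pkd2-/- (-0.31, SE 0.05, limma adjusted p = 0.000113). The mutants differed by -0.59 (SE 0.05, limma adjusted p = 3.8e-08).

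**Figure D2:**
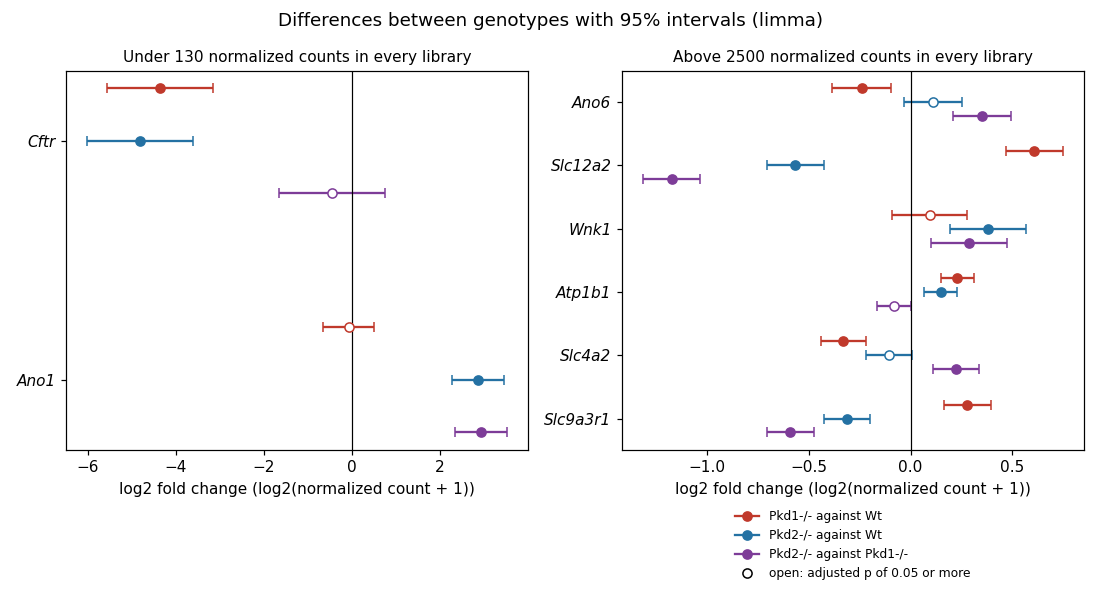
Log2 fold changes of 8 of the secretion genes (Kcnn4, with too few counts, is left out) with 95% intervals from limma, on log2(normalized count + 1), for Pkd1-/- against Wt (red), Pkd2-/- against Wt (blue) and Pkd2-/- against Pkd1-/- (purple). Open symbols have an adjusted p of 0.05 or more, the panels have different horizontal axes, and the intervals of Slc12a2 and Slc9a3r1 lie on opposite sides of 0 in the mutants.

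Counted over the members, 6 of 9 moved in Pkd1-/- against Wt at an adjusted p under 0.05. Slc12a2, Atp1b1 and Slc9a3r1 were higher and Cftr, Ano6 and Slc4a2 lower. Of all genes tested, 27.1% moved in that comparison, 13.6% higher and 13.5% lower. Among the 6237 genes that average 1000 normalized counts or more, a level that 6 of the members reach, 5 of those 6 moved and 38.6% of the genes did. In Pkd2-/- against Wt, 6 of 9 moved, against 42.3% of all genes tested (20.0% higher, 22.3% lower) and, among genes that average 1000 or more, 4 of 6 members moved against 60.8%. Here Ano1, Wnk1 and Atp1b1 were higher and Cftr, Slc12a2 and Slc9a3r1 lower. Between the mutants 6 of 9 moved, 4 higher and 2 lower in Pkd2-/-, against 46.3% of all genes tested (21.9% higher, 24.3% lower) and, among the abundant genes, 5 of 6 members moved against 64.6%. The members are few, and whether their shares differ from those of all genes was not tested. Cftr is in the counts against Wt although it passed the filter on low values only through its Wt libraries. The median log2 fold change of the members was 0.09, -0.11 and -0.08 in the 3 comparisons, or 0.01, 0.00 and 0.07 without Kcnn4, whose fitted values rest on few counts. That of all genes tested was 0.01, -0.01 and -0.01.

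By the stricter definition, which adds to the adjusted p under 0.05 a log2 fold change of 1 or more up or down, 1 member was differentially expressed in Pkd1-/- against Wt (Cftr, against 6.24% of all genes tested). The same definition held for 2 in Pkd2-/- against Wt (Cftr and Ano1, against 9.62%) and for 2 between the mutants (Ano1 and Slc12a2, against 11.8%). The libraries of the compared genotypes did not overlap for 6, 6 and 7 members, against 27.1%, 37.2% and 41.8% of all genes tested. For each of these members the two-sided exact permutation test gave p = 0.0286, the smallest that 4 libraries against 4 allow. For Cftr, which passed the filter on low values only through its Wt libraries, it is given as a description.

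Both mutants were compared with the same Wt libraries. Of the 4 members that moved in both, Cftr and Atp1b1 did so in the same direction, and Slc12a2 and Slc9a3r1 in opposite directions. Among all genes tested, 10.4% moved in the same and 6.70% in opposite directions.

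To compare members with each other, normalized counts were divided by the kilobases of merged exons. In Wt, the levels per kilobase were 7066 ± 140 for Atp1b1, 2406 ± 140 for Slc9a3r1, 480.1 ± 28.0 for Slc4a2, 390.3 ± 25.9 for Slc12a2, 317 ± 16.1 for Ano6 and 292 ± 33.3 for Wnk1 (SD, n = 4 each). Cftr (4.31 ± 1.23), Ano1 (2.20 ± 1.03) and Kcnn4 (0.24 ± 0.29) followed far below. The Wt ranges overlapped for Ano6 and Wnk1 and for Cftr and Ano1, and for no other neighbors in this order. Among the members, the pump subunit and the scaffold were thus abundant, and the cotransporter, the exchanger, the scramblase and the kinase formed a middle group. The channel genes Cftr, Ano1 and Kcnn4 were rare. This does not hold for all chloride channel genes, since Clcn3 averaged 5569 normalized counts in Wt.

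The order changed in the mutants. In Pkd1-/-, Slc12a2 (594 ± 23.7 per kilobase) stood above Slc4a2 (382 ± 17.3), and Cftr (0.19 ± 0.39) was at the bottom together with Kcnn4 (0.44 ± 0.56). In Pkd2-/-, Slc12a2 (264 ± 28.4) stood below Wnk1 (381 ± 50.7) and Ano6 (342 ± 33.7). Ano1 reached 16.3 ± 3.71 per kilobase in Pkd2-/-, above Cftr but still 16.2 times below Slc12a2.

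For each member that averaged 10 normalized counts or more, the gene with the most similar profile over the 12 libraries was found by Pearson's r on the log2 scale among 13702 genes. The libraries fall into 3 genotypes, so r largely follows the group levels, and each value is the highest of many and serves as a description. Cftr was most like Tbc1d9 (r = 0.977), which had means of 29.3, 1.25 and 1.00 normalized counts in Wt, Pkd1-/- and Pkd2-/-, and 8 genes reached r of 0.95. Slc12a2 was most like Trps1 (r = 0.994, 160 genes at 0.95), with means of 2506, 4221 and 1313. Slc9a3r1 was most like Tsc22d4 (r = 0.992, 213 genes), with means of 2608, 3224 and 2040. Ano1 was most like Slu7 (r = 0.980, 167 genes), with means of 2981, 2868 and 3716, a far smaller rise than that of Ano1. The highest r was 0.988 for Ano6 with Iqgap1, 0.979 for Wnk1 with Naaladl2, 0.974 for Atp1b1 with Pde4d and 0.958 for Slc4a2 with Ddr1. Pde4d, with means of 102, 402.5 and 214, changed more than Atp1b1. Pearson's r ignores the size of a change, so genes alike by it share the shape of a profile and need not share its size. In shape, the profiles of Slc12a2, Slc9a3r1 and Ano1 were shared by many genes, and those of Cftr and Slc4a2 by 8 and 3.

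Each mutant is 1 clone, and stretches of chromosome can differ between clones, so each member was set beside the genes within 2 Mb of it that averaged 10 normalized counts or more. Around Slc12a2, all 10 such genes lay above 0 in Pkd1-/- against Wt (median log2 fold change 0.15, range 0.01 to 1.39). All 10 lay below 0 in Pkd2-/- against Wt (median -0.29, range -4.30 to -0.02). These were the directions of Slc12a2 itself at 0.61 and -0.57. Only Gramd3, Aldh7a1 and Ctxn3 passed the adjusted p threshold in Pkd1-/-, and all but Phax, Prrc1 and Gm6944 did in Pkd2-/-. Around Slc4a2, the median of 40 genes in Pkd1-/- was -0.37, with 31 below 0, beside -0.33 for Slc4a2, and in Pkd2-/- it was -0.08 beside -0.11. Slc4a2 thus lay near the median of the genes around it in both mutants. The part of the chromosome stretch in these results was not tested.

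Around Cftr, 10 genes had a median of -0.10 in Pkd1-/- and -0.15 in Pkd2-/-, and the lowest of them was at -1.07 and -1.31, above the -4.37 and -4.82 of Cftr. Around Ano1, the median of 22 genes in Pkd2-/- was -0.09, beside 2.87 for Ano1, and they ranged from -3.37 to 1.37, so that 1 end of the range was farther from 0 than Ano1. Medians around Slc9a3r1 (70 genes, 0.00 and -0.06), Atp1b1 (30 genes, 0.02 and 0.03), Ano6 (16 genes, -0.02 and -0.12) and Wnk1 (25 genes, -0.10 and 0.02) were within 0.12 of 0 in both mutants.

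**Figure D3:**
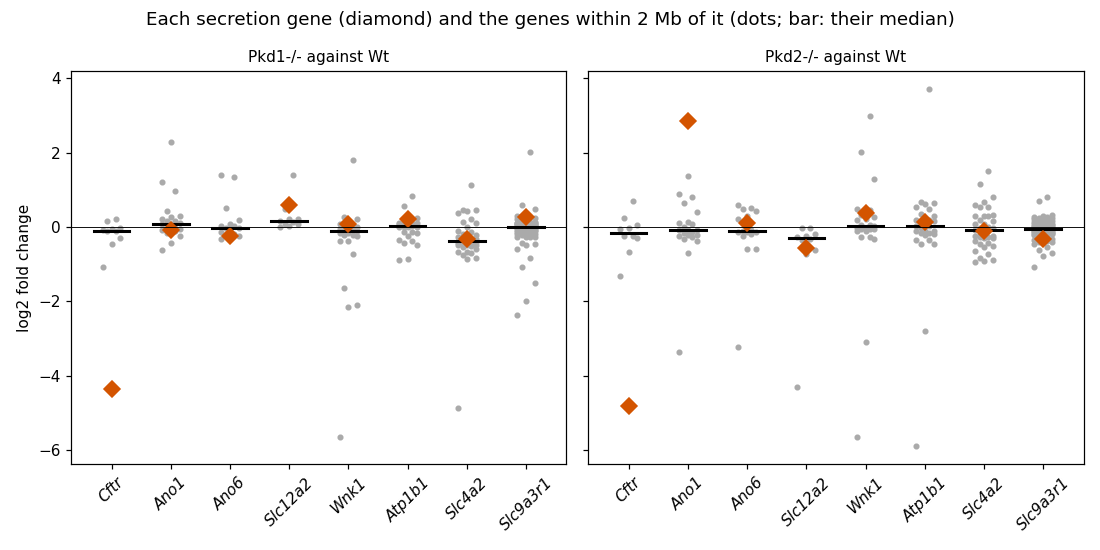
Log2 fold change of each secretion gene except Kcnn4 (diamond) and of the genes within 2 Mb of it (dots, with a bar at their median), in Pkd1-/- (left) and Pkd2-/- (right) against Wt. The bars at Slc4a2 in Pkd1-/- (-0.37) and at Slc12a2 in Pkd2-/- (-0.29) lie close to or in the direction of the diamond, while Cftr lies below and, in Pkd2-/-, Ano1 above the range of their neighbors.

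The wider secretion pathway was followed with 153 further genes in 8 lists by role, of which 27 were at 0 in all libraries and 100 were tested. In Pkd1-/- against Wt, 48 of them moved, 24 higher and 24 lower, which is 48.0% beside 27.1% of all genes tested. In Pkd2-/- 53 moved, 28 higher and 25 lower (53.0% beside 42.3%), and between the mutants 67 moved, 36 higher and 31 lower (67.0% beside 46.3%). The median log2 fold changes were 0.00, -0.02 and -0.06. The pathway genes therefore moved in both directions in about equal number. Of the 27 that moved in both mutants against the shared Wt libraries, 14 did so in the same and 13 in opposite directions.

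Among 25 chloride channel genes and subunits tested, 11 moved in Pkd1-/- (5 higher, 6 lower) and 14 in Pkd2-/- (7 and 7). These shares were 44.0% and 56.0%, beside 27.1% and 42.3% of all genes tested. Whether the share of any list by role differs from that of all genes was not tested. Bsnd, which encodes barttin, the subunit of the ClC-K channels, had 34, 41, 41 and 32 normalized counts in Wt, 197, 218, 248 and 234 in Pkd1-/-, and 76, 48, 56 and 44 in Pkd2-/-. It was highest in Pkd1-/- (log2 fold change 2.57, SE 0.17, limma adjusted p = 1.04e-09). Clic5, a member of the chloride intracellular channel family, had 227 to 281 in Wt, 201 to 257 in Pkd1-/- and 574 to 650 in Pkd2-/-, and rose in Pkd2-/- (1.27, SE 0.09, limma adjusted p = 2.02e-09).

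Among 15 other cation-chloride cotransporters and their kinases, 8 moved in Pkd1-/- (3 higher, 5 lower) and 6 in Pkd2-/- (2 higher, 4 lower). That is 53.3% and 40.0%, beside 27.1% and 42.3% of all genes tested. Among 9 potassium channel genes tested, 6 moved in Pkd1-/- (3 higher, 3 lower) and 5 in Pkd2-/- (3 higher, 2 lower), or 66.7% and 55.6%. Kcnj16, an inwardly rectifying potassium channel subunit, had 1500, 1404, 1400 and 1572 normalized counts in Wt, 134, 162, 150 and 161 in Pkd1-/-, and 817, 968, 882 and 867 in Pkd2-/-. The 3 genotypes did not overlap. Kcnj16 fell in Pkd1-/- (-3.27, SE 0.08, limma adjusted p = 5.21e-16), and it was higher in Pkd2-/- than in Pkd1-/- by 2.54 (limma adjusted p = 2.93e-15). Of the pathway genes that average 10 normalized counts or more, it alone fell in Pkd1-/- by a log2 fold change of 1 or more with an adjusted p under 0.05. Kcne2, a regulatory subunit of potassium channels, rose from 25 to 40 in Wt to 66 to 109 in Pkd1-/- (1.31, SE 0.20, limma adjusted p = 6.81e-05).

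Among 5 further pump subunits and FXYD regulators tested, 2 moved in each mutant against Wt and both were higher. That is 40.0% in each mutant, beside 27.1% of all genes tested in Pkd1-/- and 42.3% in Pkd2-/-. Of 6 aquaporins tested, 2 moved in Pkd1-/- (33.3%, beside 27.1% of all genes tested) and 1 in Pkd2-/- (16.7%, beside 42.3%). All of them were higher, a direction that rests on few genes. Aqp1, a constitutively open water channel, had 204 to 245 normalized counts in Wt, 540 to 619 in Pkd1-/- and 259 to 277 in Pkd2-/-. Its Pkd1-/- libraries stood clear of the rest (1.32, SE 0.08, limma adjusted p = 3.45e-10).

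The 17 tested genes for bicarbonate, proton and sulphate exchange and carbonic anhydrases included 6 of the 15 pathway genes differentially expressed in Pkd2-/- against Wt, 1 higher and 5 lower, where 9.62% of all genes tested were differentially expressed. With only genes that average 10 or more, the total of 15 was 8. In Pkd1-/- 7 of the 17 moved, 5 higher and 2 lower (41.2%, beside 27.1% of all genes tested). In Pkd2-/- 10 moved, 3 higher and 7 lower (58.8%, beside 42.3%). Slc4a11, a member of the bicarbonate transporter family, had 113, 138, 151 and 151 normalized counts in Wt, 150, 120, 132 and 138 in Pkd1-/-, and 770, 802, 725 and 861 in Pkd2-/-. It rose in Pkd2-/- (2.51, SE 0.11, limma adjusted p = 7.61e-13), and it was higher there than in Pkd1-/- by 2.54 (limma adjusted p = 3.92e-13).

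Slc4a4, the sodium bicarbonate cotransporter NBCe1, was low, with 13, 20, 22 and 22 normalized counts in Wt, 14, 18, 8 and 12 in Pkd1-/-, and 2, 0, 0 and 0 in Pkd2-/-. It fell in Pkd2-/- (limma adjusted p = 2.93e-07). Car13, a cytosolic carbonic anhydrase, had 285 to 331 in Wt, 391 to 510 in Pkd1-/- and 82 to 110 in Pkd2-/-, and fell in Pkd2-/- (-1.67, SE 0.11, limma adjusted p = 6.08e-10). Slc4a3, the anion exchanger AE3 and a relative of Slc4a2, had 77 to 91 in Wt, 92 to 98 in Pkd1-/- and 20 to 37 in Pkd2-/- (-1.43, SE 0.18, limma adjusted p = 2.55e-06). Car9, a membrane-bound carbonic anhydrase, had 4 to 13 in Wt, 17 to 29 in Pkd1-/- and 1 to 4 in Pkd2-/-. It was higher in Pkd1-/- than in Wt (1.42, SE 0.40, limma adjusted p = 0.0112). Car9 reached the minimum mean set for naming a pathway gene only through its Pkd1-/- libraries, so this p-value is given as a description.

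Of 15 other scaffolds and trafficking proteins of CFTR tested, 9 moved in Pkd1-/- (3 higher, 6 lower) and 11 in Pkd2-/- (6 higher, 5 lower). That is 60.0% and 73.3%, beside 27.1% and 42.3% of all genes tested. Dab2, a clathrin adaptor in the uptake of CFTR from the membrane, had 2820 to 3152 normalized counts in Wt, 1617 to 1761 in Pkd1-/- and 1174 to 1428 in Pkd2-/-. It fell in Pkd1-/- (-0.81) and in Pkd2-/- (-1.17, SE 0.06, limma adjusted p = 1.7e-11). Myo5b, a motor of apical recycling, had 571 to 667 in Wt, 413 to 426 in Pkd1-/- and 1090 to 1413 in Pkd2-/-, and was higher in Pkd2-/- than in Pkd1-/- by 1.55 (SE 0.07, limma adjusted p = 3.4e-12).

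Of 8 secretagogue receptors tested, 3 moved in Pkd1-/- (1 higher, 2 lower) and 4 in Pkd2-/-, all higher. P2ry2, the receptor for extracellular ATP and UTP that raises cell calcium, had 268, 298, 290 and 296 normalized counts in Wt, 178, 159, 151 and 148 in Pkd1-/-, and 779, 762, 615 and 683 in Pkd2-/-. The 3 genotypes did not overlap, with Pkd2-/- highest and Pkd1-/- lowest. P2ry2 rose in Pkd2-/- (1.29, SE 0.09, limma adjusted p = 1.01e-09) and was higher there than in Pkd1-/- by 2.15 (SE 0.09, limma adjusted p = 4.7e-13). Like Ano1, P2ry2 was highest in the 4 Pkd2-/- libraries, and 20.0% of all genes tested moved higher in Pkd2-/- against Wt. A link between P2ry2 and Ano1 was not tested.

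**Figure D4:**
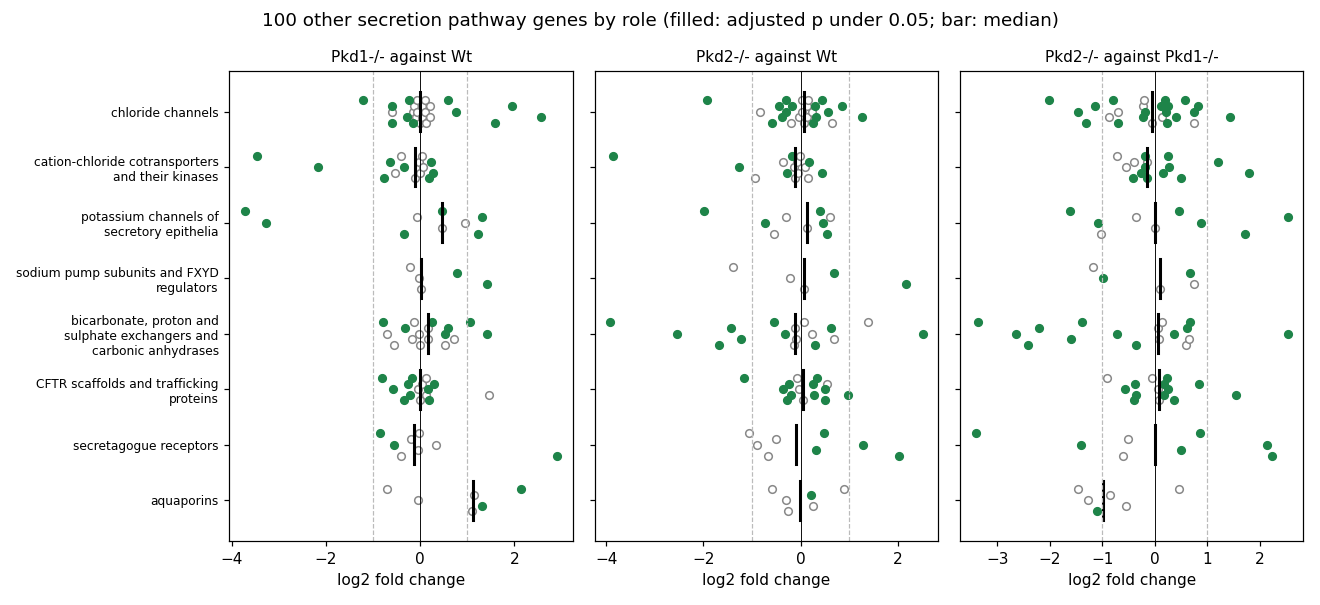
Log2 fold changes of 100 further secretion pathway genes in 8 lists by role, in 3 panels by comparison. Filled dots have an adjusted p under 0.05, black bars are list medians and dashed lines mark a log2 fold change of 1 in either direction, and every list holds genes on both sides of 0 in every panel.

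The libraries summed to 25966273 to 28027792 normalized counts, with no identical pair, and since the values are normalized these totals are not read depths. Pkd1 had 682 to 883 normalized counts in Wt, 30 to 49 in Pkd1-/-, low as that label requires, and 1057 to 1492 in Pkd2-/-, where it rose (log2 fold change 0.62, limma adjusted p = 0.00164). Pkd2 had 3438 to 4467 in Wt and 2545 to 2858 in Pkd1-/-, where it fell (log2 fold change -0.54, limma adjusted p = 3.31e-06). It had 3855 to 4135 in Pkd2-/-, where the whole-gene count includes parts outside the deletion and does not check the label. Of 13 collecting duct and epithelial markers, 9 had a mean of at least 10. Their list sums were 64964 to 72745, 65661 to 67212 and 70387 to 73772 in Wt, Pkd1-/- and Pkd2-/-. Epcam, Krt18, Cdh1 and Krt8 carried most of these sums, which hide differences of single markers. Gata3 had 176 to 248, 42 to 56 and 294 to 430, and Hoxb7 1602 to 1975, 1659 to 1897 and 1194 to 1372. Aqp2, the defining channel of principal cells, was at 0 in all 12 libraries, and Aqp3, Avpr2 and Elf5 were at most 12. Of 5 intercalated cell markers only Atp6v1b1 had a mean of at least 10, with list sums of 29 to 82, 437 to 547 and 3 to 5, and Foxi1 and Atp6v0d2 were at 0. Of 4 proximal tubule markers only Lrp2 did, with list sums of 480 to 557, 33 to 71 and 744 to 1222, and Slc34a1 was at 0. The intercalated cell sums, carried mainly by Atp6v1b1, were highest in Pkd1-/- and lowest in Pkd2-/-, as Slc12a2 and Slc9a3r1 were. The proximal tubule sums, carried mainly by Lrp2, had the opposite order, as P2ry2 did. Cubn did not follow it, with 8 normalized counts in every Pkd1-/- library, 2 to 6 in Wt and 2 to 5 in Pkd2-/-. Each order is therefore that of a single gene and does not show a change of cell type. The part of these genes in the results named was not tested. Markers of thick ascending limb (0 to 7), fibroblast (15 to 99), endothelium (0 to 9) and leukocyte (47 to 73) summed to few counts in every library.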

How the data were processed

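RNA of 12 mIMCD3 libraries, 4 each of Wt, Pkd1-/- and Pkd2-/-, was analyzed. The authors trimmed reads with Trim Galore (Galaxy version 0.4.3.1), checked them with FastQC (0.72), aligned them to GRCm38 with HISAT2 (2.1.0), counted them per gene with htseq-count (0.9.1) and normalized them with DESeq2 (2.11.40.4). The deposited score values are DESeq2-normalized counts that the authors rounded to whole numbers. They are not read counts, so genes were not tested with a count model, and the read depth is unknown. The intervals of the Cftr ratios alone treat the values as counts and are approximate. The strand setting of the counting is not given in the sources used here. All 12 sample columns were used, leaving 0 unused.

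Gene symbols, positions and exons were taken from GENCODE M21 (47223 identifiers matched, 419 did not) and promoters from RefSeq (GRCm38.p6). Of the 47642 genes listed, 25060 had a count. log2(normalized count + 1) was tested with limma 3.58.1 (lmFit, eBayes with trend) in R 4.3.3, all 12 libraries in 1 model, over 18552 genes that averaged 1 normalized count or more. P-values were two-sided and Benjamini-Hochberg adjusted within each comparison. Fold changes understate those of low genes. Single values were also tested with an exact permutation test of 4 libraries against 4. Other computations used Python 3.11.15 with scipy 1.17.1. The fit was tested on data simulated with the same spread setting for every gene. It recovered 83.1% of the changed genes in Pkd1-/- against Wt and 83.6% in Pkd2-/- against Wt. Real genes need not share that setting, so the simulation does not check the call of any single gene.

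The 9 members, the pathway and marker lists and the tests were chosen with earlier results of these data known. Beside the members, Pkd1 and Pkd2, genes were named by rule. In each comparison these were up to 4 pathway genes each with the highest and the lowest log2 fold change, among those differentially expressed with a mean of at least 10 and no overlap between genotypes. For each member with a mean of at least 10, the gene with the highest Pearson r was added. Stk39 and Oxsr1 fall outside it, and genes sharing exons with a member are given beside it. Other settings tried were pseudocounts of 0.5 and 5, a mean of 10 as the filter and none, a replicate block, only the genotypes compared, the same upper quartile or total, no variance trend, and leaving out each library.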

Additional observations from a re-analysis of the deposited data

Results flagged for a closer look

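Cftr had 6 normalized counts in 1 Pkd1-/- library and 0 in the other 3, and 1 in 1 Pkd2-/- library and 0 in the other 3, so that a single library stood apart in both groups by Dixon's criterion. These were 2 of 26 groups with a range. Chance gives about 1 such group in 20 for continuous values, and any group with 1 value above 0 and the rest at 0 meets the criterion, so it carries no weight here. Without Pkd1-/- replicate 1, the log2 fold change of Cftr in Pkd1-/- against Wt was -5.07.

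For 6 members the effects of the mutants against Wt differed from each other, by the test of Pkd2-/- against Pkd1-/- in limma. The difference (Pkd2-/- minus Pkd1-/-, log2) was 2.94 for Ano1, 0.35 for Ano6, -1.18 for Slc12a2, 0.29 for Wnk1, 0.22 for Slc4a2 and -0.59 for Slc9a3r1, each with an adjusted p under 0.05. Slc12a2 and Slc9a3r1 moved in opposite directions in the mutants.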

How the results depend on the processing

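Over all other settings, 5 to 6 members moved in Pkd1-/- against Wt, 6 to 7 in Pkd2-/- against Wt and 5 to 7 between the mutants, and 1, 2 and 2 were differentially expressed under each of them. With 1 library left out, 6 members moved in Pkd1-/- against Wt, 6 to 7 in Pkd2-/- against Wt and 5 to 6 between the mutants. A minimum mean of 10 normalized counts tests fewer genes, and it gave 7 differentially expressed pathway genes in Pkd1-/- against Wt in place of 16, 8 in Pkd2-/- against Wt in place of 15, and 739 genes in all in Pkd1-/- against Wt in place of 1158. Kcnn4 has no value under that minimum. Of the members' log2 fold changes, 3 turned sign, none of them past the threshold. Ano1 in Pkd1-/- against Wt was -0.07, and with 1 library left out it ranged from -0.28 to 0.19, with 0.19 without Wt replicate 1 and 0.02 without Pkd1-/- replicate 1. Cftr in Pkd2-/- against Pkd1-/- was -0.45 and ranged from -0.70 to 0.25, with 0.25 without Pkd1-/- replicate 1. The calls that changed for Ano6, Wnk1, Atp1b1 and Slc4a2 are given beside their values. Scaling to the same total moved the median of all genes by less than 0.1.

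Libraries share replicate numbers across genotypes, and the labels do not say that a number marks a shared day or batch. Deviations from the group means of same-numbered libraries correlated at -0.07 to 0.20 over 12 pairs, 2 of them above 0.1, and a library correlated best with its own number in 9 of 24 choices, so the numbers were taken as names. With the replicate block, 6 members moved in each comparison, as without it, and 1170, 1790 and 2183 genes in all were differentially expressed in place of 1158, 1785 and 2182.

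The depth limits Cftr in the mutants, Ano1 in Wt and Pkd1-/-, and Kcnn4 in every genotype. Rounding to whole normalized counts adds error to these genes. P-values measure the spread between dishes of 1 line, and do not cover other clones.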
